A study of Mus musculus with 18 samples.

Results

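Gene expression was compared between enriched male germ cells of 2 mouse models of trisomy, Ts65Dn and Ts1Cje, at 16-17 days post partum (dpp). The comparison used 6 of the 18 arrays of the series, 3 labelled Ts65Dn at 16-17 dpp and 3 labelled Ts1Cje at 16-17 dpp, chosen by their sample labels. The other 12 arrays held both models at 19-20 dpp and diploid wild-type (WT) littermates at both ages, with 3 arrays per group. Biotin-labelled total RNA was read on whole-genome mouse bead arrays (MouseWG-6 v1.1), on which the brightness of a bead type stands for the level of a transcript. The labels do not say from which of the trisomic lines the WT littermates came, how the germ cells were enriched, or whether arrays shared a litter or slide.

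Ts65Dn mice carry a small extra chromosome made of the distal part of mouse chromosome 16 joined to the start of chromosome 17. Ts1Cje mice carry a shorter distal part of chromosome 16 as an extra copy, attached to chromosome 12. The Ts1Cje segment begins at Sod1, the cytosolic superoxide dismutase, whose extra copy is interrupted by a neomycin resistance cassette. Both models are therefore trisomic for the distal genes of chromosome 16 that carry the counterparts of many human chromosome 21 genes. They differ in the genes between the proximal break of Ts65Dn and Sod1, and in the chromosome 17 genes, which Ts65Dn alone has in 3 copies. Both lines carry their extra segment in every cell, so the somatic cells of the testis carry it as well as the germ cells. Between the ages sampled, the first wave of spermatogenesis in the mouse passes through the pachytene stage of meiosis, and Ts65Dn males are known for reduced fertility.

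The arrays carried a control probe named for neomycin resistance, and it was used to check each Ts1Cje array. Its average signal was 183.0, 185.8 and 161.0 on the Ts65Dn arrays, which is not above background by the arrays' detection p-values of 0.492, 0.416 and 0.365. On the arrays labelled Ts1Cje it was 152.0, 2069 and 942.6 for replicates 1 to 3, and replicate 1, with a detection p-value of 0.508, was not above background. Thus 2 of the 3 Ts1Cje arrays carried the signal and the array labelled Ts1Cje replicate 1 did not. All 3 Ts1Cje arrays at 19-20 dpp carried it, with signals of 704.5 to 1210, whereas the Ts65Dn arrays of that age and all 6 WT arrays lay between 146.7 and 176.5. The log2 signal differed by -1.92 between Ts65Dn and Ts1Cje at 16-17 dpp (exact two-sided permutation test, p = 0.4, n = 3 each, where 0.1 is the smallest p this design allows).

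**Figure D1:**
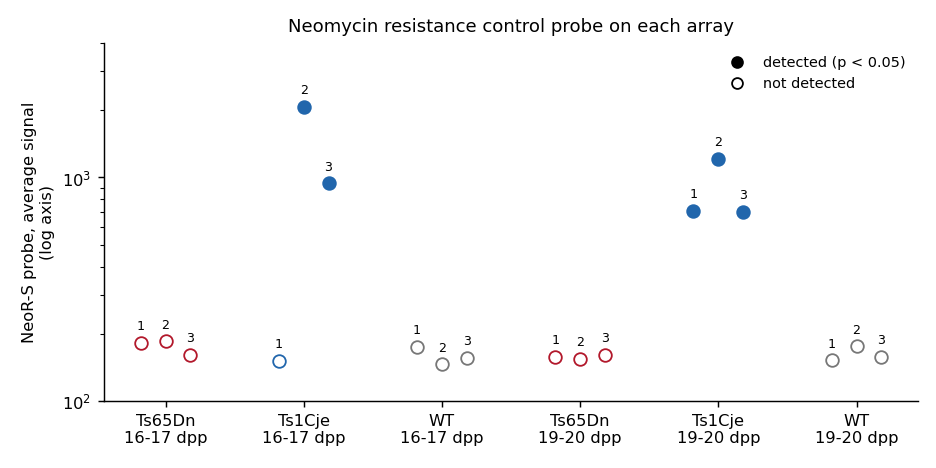
Average signal of the neomycin resistance control probe (vertical axis, log scale) on each of the 18 arrays, with the replicate number beside each point and filled points where the probe was detected. The Ts65Dn arrays at 16-17 dpp read 183.0, 185.8 and 161.0 and the Ts1Cje arrays read 152.0, 2069 and 942.6, so that the open point of Ts1Cje replicate 1 lies at the level of the Ts65Dn and WT arrays.

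The Ts1Cje arrays were also less alike over all tested probes than the Ts65Dn arrays. Replicate 1 correlated with replicates 2 and 3 at r = 0.936 and 0.972, and replicate 2 with replicate 3 at r = 0.958. The array labelled Ts1Cje replicate 1 correlated at r = 0.984 with WT replicate 1 of the same age, and at 0.962 and 0.97 with WT replicates 2 and 3. Other pairs across groups were as high. Ts1Cje replicate 3 with Ts65Dn replicate 3, and Ts65Dn replicate 1 with WT replicate 3, each correlated at r = 0.986. Within Ts65Dn the pairs of arrays correlated at r = 0.983 to 0.988, and the median standard deviation (SD) of a probe was 0.176 in Ts65Dn and 0.284 in Ts1Cje on the log2 scale. Values below are from all 6 arrays unless they are said to be without the array labelled Ts1Cje replicate 1. The 6 arrays had median signals of 180.2 to 226.3 and between 18163 and 19160 probes detected above background. The p-values and standard errors (SE) of the differences below come from a model of all 18 arrays. They rest on the spread within groups, pooled over its 6 groups, and speak of these samples only.

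No probe passed the test between Ts65Dn and Ts1Cje at 16-17 dpp. The limma model called 0 of 21327 tested probes (0%) at a Benjamini-Hochberg adjusted p under 0.05, and the smallest adjusted p was 0.169. At an unadjusted p under 0.05 there were 1083 probes, 595 higher and 488 lower in Ts65Dn, and the median difference over all probes was -0.02. Without the array labelled Ts1Cje replicate 1, limma again called 0 of 21327 probes (0%), with a smallest adjusted p of 0.855 and 506 at an unadjusted p under 0.05. Fits with other weights or fewer arrays called between 0 and 122 probes, with 122 for the fit that weights arrays by their quality. At 19-20 dpp the same contrast called 2511 of the 21327 probes (11.8%), 1564 higher and 947 lower in Ts65Dn. The main axis of variation among the arrays (principal component 1) held 71.7% of the variance. On it the WT arrays lay at -86.6 to -12.4 at 16-17 dpp and 77.1 to 122.1 at 19-20 dpp. At 19-20 dpp Ts65Dn lay at 49.6, -12.3 and 3.6, against 159.5, 63.9 and 59.2 in Ts1Cje. At 16-17 dpp the values were -90.3, -87.8 and -63.5 in Ts65Dn, against -24, -113 and -56.8 in Ts1Cje. The part of this axis in the calls and in changes with age was not tested.

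The genes described next were therefore read by their values on each array, as normalised log2 intensities. Of 5174 named genes tested, 139 (2.69%) were higher and 101 (1.95%) were lower in Ts65Dn at an unadjusted p under 0.05. In 364 named genes (7.04%) all Ts65Dn arrays lay above all Ts1Cje arrays, and in 258 (4.99%) all lay below. Without the array labelled Ts1Cje replicate 1, 52 named genes (1.01%) were higher and 52 lower at an unadjusted p under 0.05. In 464 (8.97%) all Ts65Dn arrays then lay above both remaining Ts1Cje arrays, and in 457 of the 5174 all lay below. These shares are the background for the counts of genes below.

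The genes in 3 copies in Ts65Dn and in 2 functional copies in Ts1Cje had the higher values in Ts65Dn. There were 18 such genes with a tested probe, 7 on chromosome 16, Sod1, and 10 on chromosome 17, and 17 of the 18 had a higher mean in Ts65Dn. Without Ts1Cje replicate 2, the chromosome 17 genes Ldhal6b, Tcp10a, Tagap1 and Tmem181a had a lower mean in Ts65Dn. Adamts1, the gene with the lower mean with all arrays, then differed by 0.013. Of these 18, 9 (50%) were higher at an unadjusted p under 0.05 and none lower, and in 10 (55.6%) all Ts65Dn arrays lay above all Ts1Cje arrays. Their median difference was 0.55 on the log2 scale, against -0.01 over all named genes, where a ratio of 3 to 2 is 0.58 (0.585 before rounding). Without the array labelled Ts1Cje replicate 1 the median was 0.59, and 7 (38.9%) were higher at an unadjusted p under 0.05 and 11 (61.1%) lay apart. None of the 18 passed the adjusted test at this age. On separate arrays at 19-20 dpp, 8 of the 18 (44.4%) were called higher in Ts65Dn and none lower, against 9.63% of all named genes called higher.

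**Figure D2:**
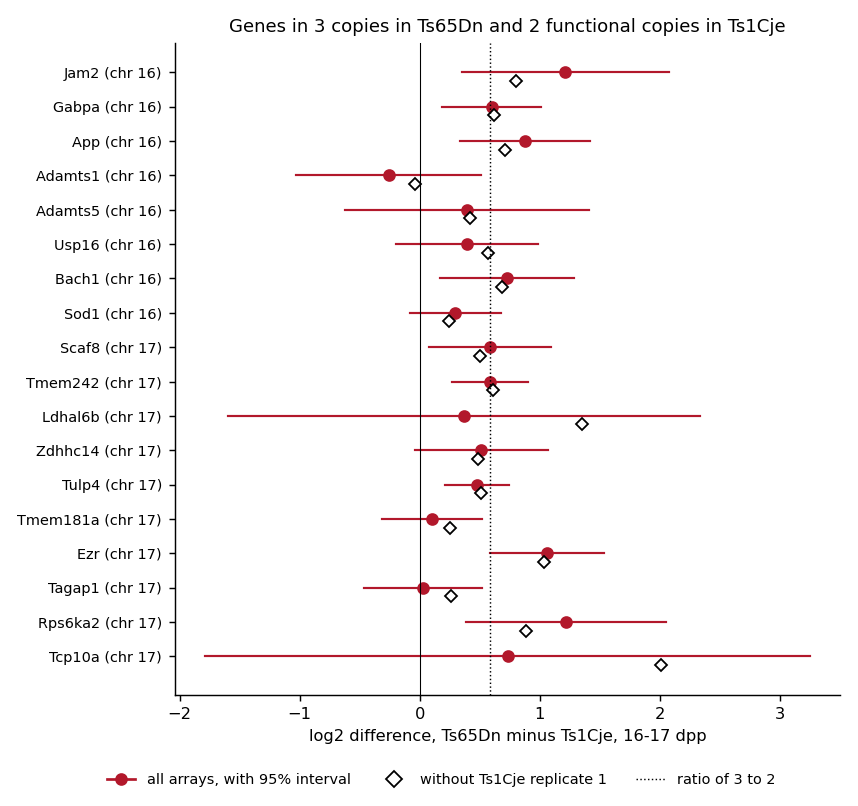
Difference in log2 intensity between Ts65Dn and Ts1Cje at 16-17 dpp (horizontal axis) for each of the 18 genes in 3 copies in Ts65Dn alone, with filled points and 95% intervals for all arrays and diamonds for the fit without Ts1Cje replicate 1. The dotted line marks a ratio of 3 to 2 and the solid line no difference, and 17 of the 18 filled points lie to the right of the solid line.

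On chromosome 16 the stretch between the proximal break of Ts65Dn and Sod1 held 77 listed genes, of which 20 were named on the array and 7 had a tested probe. Of the 7, 6 had a higher mean in Ts65Dn, and the median difference was 0.60, or 0.62 without the array labelled Ts1Cje replicate 1. The median deviation of these genes from the WT mean was 0.76, 0.82 and 0.59 on the Ts65Dn arrays, against 0.03, 0.51 and -0.21 on the Ts1Cje arrays. All Ts65Dn arrays were above all Ts1Cje arrays, and Ts1Cje replicate 2 was the highest of its group.

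App encodes the amyloid precursor protein. Its log2 intensity was 13.99, 14.04 and 13.84 in Ts65Dn, against 12.74, 13.30 and 13.19 in Ts1Cje. The lowest Ts65Dn array was above the highest Ts1Cje array, and the difference was 0.88 ± 0.25 (SE, n = 3 each), a ratio of 1.84 (limma, adjusted p = 0.704), or 0.71 without the array labelled Ts1Cje replicate 1. Gabpa encodes the DNA-binding subunit of an ETS-family transcription factor. Gabpa measured 11.82, 11.53 and 11.56 in Ts65Dn, against 11.09, 11.19 and 10.84 in Ts1Cje. These values did not overlap either, and the difference of 0.60 ± 0.19, a ratio of 1.51, was close to 0.62 when replicate 1 was left out (limma, adjusted p = 0.862).

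Jam2, a junctional adhesion molecule, had the largest difference of the 7 genes. Its log2 intensity was 10.59, 10.36 and 10.19 in Ts65Dn, against 8.34, 9.91 and 9.26 in Ts1Cje. The Ts1Cje values were widely spread, with replicate 1 the lowest, and the difference of 1.21 ± 0.41 (limma, adjusted p = 0.891) was 0.80 without that array. The 3 tested probes of Jam2 gave differences of 1.214, 1.178 and 1.202. Bach1, a transcriptional repressor of haem oxygenase, measured 8.97, 8.87 and 8.61 in Ts65Dn, against 8.0, 8.53 and 7.73 in Ts1Cje. Bach1 arrays again did not overlap, with a difference of 0.73 ± 0.26 (limma, adjusted p = 0.906), or 0.68 without replicate 1.

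The remaining 3 genes of the stretch overlapped between the models with all arrays. Usp16, a deubiquitinase that acts on histone H2A, measured 8.63, 8.80 and 9.04 in Ts65Dn, against 8.79, 8.39 and 8.12 in Ts1Cje. It differed by 0.39 ± 0.28, or by 0.57 without the array labelled Ts1Cje replicate 1, and its arrays did not overlap without that array. Adamts5, a secreted metalloproteinase, differed by 0.40 ± 0.48, or 0.42 without it. Adamts1, another secreted metalloproteinase, was the gene of the 18 with a lower mean in Ts65Dn, at -0.26 ± 0.36, and it was detected on 2 arrays of each group. Its difference was -0.04 without the array labelled Ts1Cje replicate 1.

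Sod1 is present in 3 functional copies in Ts65Dn and 2 in Ts1Cje, and where its probe lies relative to the cassette is unknown here. Its main probe read 14.89, 14.98 and 15.004 in Ts65Dn, against 14.55, 14.72 and 14.71 in Ts1Cje. All Ts65Dn arrays lay above all Ts1Cje arrays, by 0.30 ± 0.18 on average (a ratio of 1.23, limma, adjusted p = 0.958), or 0.24 without replicate 1. A second, dim probe of Sod1, detected on 1 array of each group, differed by -0.08 ± 0.25. At 19-20 dpp the main probe differed by 0.94 ± 0.18 (limma, adjusted p = 0.00982), and the change of that difference with age did not pass (interaction 0.64 ± 0.25, limma, adjusted p = 0.201).

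On chromosome 17 the segment present in Ts65Dn alone held 48 listed genes, of which 19 were named on the array and 10 tested. All 10 had a higher mean in Ts65Dn, with differences of 0.03 to 1.22 and a median of 0.55, or 0.56 without the array labelled Ts1Cje replicate 1. This count rests in part on Ts1Cje replicate 2. Without replicate 2, Ldhal6b differed by -1.214, Tcp10a by -1.135, Tagap1 by -0.254 and Tmem181a by -0.043, and the median of the 10 genes was 0.431. The median deviation of these genes from the WT mean was 0.45, 0.45 and 0.50 on the Ts65Dn arrays, against 0.05, -0.23 and 0.02 on the Ts1Cje arrays. The Ts65Dn arrays lay close together and above all Ts1Cje arrays, and here replicates 1 and 3 of Ts1Cje were alike.

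Ezr encodes ezrin, which links the cell membrane to actin. Its log2 intensity was 12.08, 12.20 and 11.82 in Ts65Dn, against 10.91, 11.51 and 10.48 in Ts1Cje. Of the 18 genes Ezr had the smallest p, with a difference of 1.06 ± 0.22 and a ratio of 2.09 (limma, adjusted p = 0.308), or 1.03 without replicate 1. Rps6ka2, a ribosomal S6 kinase, measured 12.11, 11.81 and 11.73 in Ts65Dn, against 9.997, 11.28 and 10.71 in Ts1Cje. The 2 groups did not overlap, and the difference of 1.22 ± 0.39 (limma, adjusted p = 0.862) was 0.89 without replicate 1, the lowest of the Ts1Cje arrays.

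Tmem242, a small transmembrane protein, and Tulp4, a tubby-like protein, had narrow groups. Tmem242 measured 13.19, 13.41 and 13.24 in Ts65Dn, against 12.75, 12.45 and 12.88 in Ts1Cje. Its difference was 0.59 ± 0.15 (a ratio of 1.501, limma, adjusted p = 0.575), and 0.61 without replicate 1. For Tulp4 the values were 13.12, 13.12 and 13.17 in Ts65Dn, against 12.72, 12.50 and 12.75 in Ts1Cje. The groups of both genes were apart, and Tulp4 differed by 0.48 ± 0.12 (limma, adjusted p = 0.608), or 0.51 without replicate 1.

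Of the other chromosome 17 genes, Zdhhc14, a protein palmitoyltransferase, was also higher on every Ts65Dn array, by 0.51 ± 0.26, or 0.49 without replicate 1. Scaf8, which binds the tail of RNA polymerase II, differed by 0.59 ± 0.24, or 0.50 (0.504 before rounding) without replicate 1, with its lowest Ts65Dn array at the level of its highest Ts1Cje array. Ldhal6b, a retrogene of the lactate dehydrogenase family, and Tcp10a, a t-complex gene, had the widest spread. Ldhal6b measured 12.74, 13.04 and 14.23 in Ts65Dn, against 14.93, 9.80 and 14.18 in Ts1Cje, and Tcp10a measured 9.17, 10.19 and 11.30 in Ts65Dn, against 12.05, 5.76 and 10.66 in Ts1Cje. In both genes the Ts1Cje arrays lay on both sides of all Ts65Dn arrays, with replicate 2 the lowest and replicate 1 the highest, the order that the medians of the pachytene and spermatid lists take below. The differences were 0.37 for Ldhal6b and 0.73 for Tcp10a, and 1.35 and 2.01 without the array labelled Ts1Cje replicate 1. Tmem181a and Tagap1 overlapped, with differences of 0.10 ± 0.20 and 0.03 ± 0.23, or 0.25 and 0.26 without it, while a second probe of Tagap1 differed by 0.55 ± 0.21. Tagap1, Tcp10a and Tmem181a lie among near-identical copies, so their probes may read more than 1 gene.

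**Figure D3:**
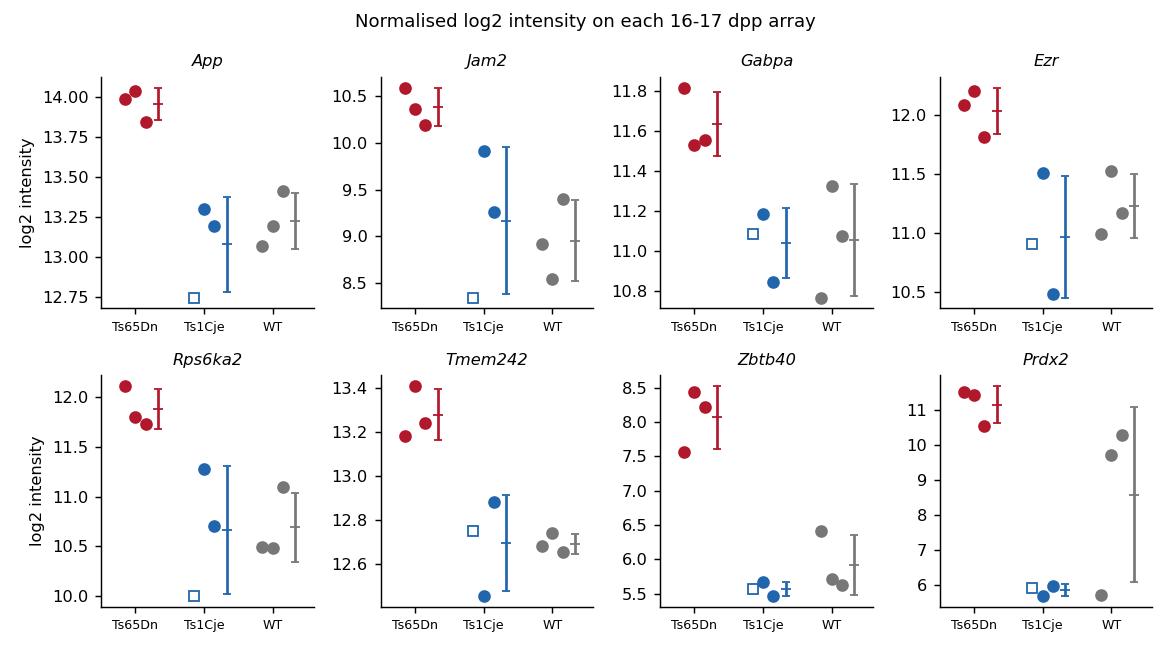
Normalised log2 intensity (vertical axes, which do not start at 0) of 8 genes on each 16-17 dpp array of Ts65Dn, Ts1Cje and WT, with the mean and SD of 3 arrays beside the points and an open square for Ts1Cje replicate 1. For App the Ts65Dn arrays read 13.84 to 14.04 and the Ts1Cje arrays 12.74 to 13.30, and Prdx2 shows WT arrays both near the Ts1Cje arrays and near the Ts65Dn arrays.

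Genes in 3 copies in both models were read in the same way. On chromosome 16 distal to Sod1, 73 genes were listed, 31 named on the array and 19 tested. None of the 19 was higher or lower at an unadjusted p under 0.05, against 2.69% and 1.95% of all named genes. In 2 of the 19 all Ts65Dn arrays lay above all Ts1Cje arrays, against 7.04% of all named genes. In 0 of the 19 all lay below, against 4.99%. The median difference was 0.22, with 15 of 19 means higher in Ts65Dn, and it was -0.03, with 8 of 19 higher, without the array labelled Ts1Cje replicate 1. The deviation of these genes from the WT mean was 0.57, 0.91 and 0.56 on the Ts65Dn arrays, against -0.09, 0.73 and 0.45 on the Ts1Cje arrays. Replicates 2 and 3 of Ts1Cje thus lay in or near the range of Ts65Dn, and the array without the neomycin signal lay near the WT mean.

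The following 3 genes of this group were named after their values were seen. Il10rb, a receptor chain for interleukin 10, measured 10.30, 10.26 and 10.20 in Ts65Dn, against 8.52, 9.98 and 9.89 in Ts1Cje. Ifngr2, a chain of the interferon gamma receptor, measured 14.35, 14.43 and 14.35 in Ts65Dn, against 12.91, 14.33 and 13.91 in Ts1Cje. For Il10rb and Ifngr2 every Ts65Dn array lay above every Ts1Cje array, with and without replicate 1. In both genes replicate 1 of Ts1Cje lay far below the other Ts1Cje arrays, and the differences of 0.79 ± 0.46 and 0.66 ± 0.36 became 0.32 and 0.26 without it. Dyrk1a, a dosage-sensitive kinase of the human chromosome 21 region, differed by 0.22 ± 0.19, and by 0.01 without it.

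Genes of the same chromosomes outside the extra segments lay close to 0. The 136 tested genes of chromosome 16 in 2 copies in both models had a median difference of -0.02 with and without the array labelled Ts1Cje replicate 1, with 1 higher and 2 lower at an unadjusted p under 0.05. For the 222 such genes of chromosome 17 the median was -0.05, or -0.06 without it, with 7 higher and 6 lower. None of the genes listed at the end of chromosome 12, which Ts1Cje carries in 1 copy, could be named on the array.

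The array numbers in the file headers run in sixes, and each run of 6 held 1 array of every group of this age, those with the same replicate number. Within the 3 runs the median difference of the chromosome 16 genes in 3 copies in Ts65Dn alone was 0.73, 0.35 and 0.88, against 0.60 over all arrays. The chromosome 17 genes gave 0.42, 0.63 and 0.39 within the runs, so both groups of genes were higher in Ts65Dn in each run. For the genes in 3 copies in both models the medians were 0.80, -0.01 and -0.05, with the first from the run that holds the array labelled Ts1Cje replicate 1.

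Each model was also set against the WT arrays of the same age, and the 2 comparisons share the 3 WT arrays. The genes of chromosome 16 in 3 copies in Ts65Dn alone had a median difference from WT of 0.73 in Ts65Dn and 0.06 in Ts1Cje. For the chromosome 17 genes the medians were 0.50 in Ts65Dn and -0.14 in Ts1Cje, and for Sod1 the differences were 0.35 in Ts65Dn and 0.05 in Ts1Cje. The genes in 3 copies in both models gave 0.57 in Ts65Dn and 0.36 in Ts1Cje. All Ts1Cje values of this paragraph include the array labelled replicate 1. On Ts1Cje replicates 1 to 3 the genes in 3 copies in both models deviated from the WT mean by -0.09, 0.73 and 0.45. Over all probes, limma called 4 for Ts65Dn against WT and 0 for Ts1Cje against WT, with 1654 and 427 at an unadjusted p under 0.05. In bulk samples such as these, more cells of a type and more RNA per cell cannot be told apart.

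**Figure D4:**
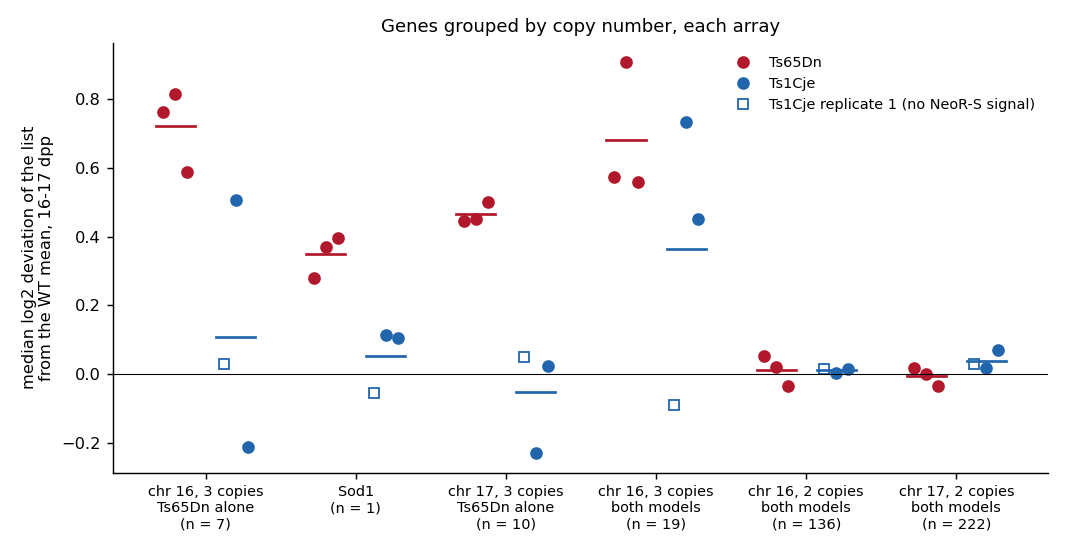
Median deviation from the WT mean, in log2 units (vertical axis), of genes grouped by their copies in each model (horizontal axis), with a point for each 16-17 dpp array and a line at the mean of the 3 arrays. The Ts65Dn arrays of the chromosome 17 group lie at 0.45 to 0.50 and the Ts1Cje arrays at -0.23 to 0.05, while the 2-copy groups lie near 0 in both models.

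Outside the trisomic segments, the genes with the smallest p included several dim probes. Zbtb40, a zinc finger protein, measured 7.56, 8.43 and 8.22 in Ts65Dn, against 5.57, 5.66 and 5.46 in Ts1Cje. Its probe was not above background on any Ts1Cje array, so that it was at least 2.84-fold higher in Ts65Dn (means 8.07 and 5.56, limma, adjusted p = 0.169), and its WT values were 6.41, 5.71 and 5.63. The Ts65Dn and Ts1Cje arrays did not overlap. An unnamed probe, scl34459.22.1_92-S, differed by 2.79 ± 0.46 and another unnamed probe by 1.01 ± 0.17, both with an adjusted p of 0.169 by limma, and by 2.595 and 1.07 without the array labelled Ts1Cje replicate 1. The unnamed probes with the smallest p among lower values, scl36499.7_372-S and scl23586.1.295_70-S, differed by -1.23 ± 0.23 and -0.80 ± 0.16 (limma, adjusted p = 0.255 and 0.303), or -1.22 and -0.72 without it.

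Prdx2, a peroxiredoxin that removes hydrogen peroxide, was below background in Ts1Cje as well. It measured 11.51, 11.42 and 10.55 in Ts65Dn, against 5.94, 5.69 and 5.996 in Ts1Cje, with no overlap between the models. It was at least 24.3-fold higher in Ts65Dn (means 11.16 and 5.88, limma, adjusted p = 0.437). The WT arrays read 5.74, 9.73 and 10.31, and at 19-20 dpp the values were 6.13, 9.56 and 5.81 in Ts65Dn and 8.90, 5.81 and 10.32 in Ts1Cje. The probe was thus high on some arrays and low on others within WT at 16-17 dpp and within both models at 19-20 dpp.

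Other genes with higher values in Ts65Dn had moderate to bright signals. Pcbp4, an RNA-binding protein of the poly(C) family, measured 13.16, 12.93 and 13.04 in Ts65Dn, against 12.01, 12.34 and 12.16 in Ts1Cje, a difference of 0.87 ± 0.23 (limma, adjusted p = 0.615), or 0.79 without the array labelled Ts1Cje replicate 1. Pde4d, a phosphodiesterase of cyclic AMP, measured 9.58, 9.23 and 8.45 in Ts65Dn, against 7.48, 7.61 and 7.79 in Ts1Cje. Its difference of 1.46 ± 0.41 was 1.39 without the array labelled Ts1Cje replicate 1 (adjusted p = 0.689 by limma with all arrays). The Ts65Dn and Ts1Cje arrays were apart in both genes. Ginm1, a membrane glycoprotein, differed by 0.68 ± 0.19, Dnmbp, a scaffold for dynamin, by 1.04 ± 0.31, and 4930486L24Rik by 1.17 ± 0.36, and without that array these were 0.71, 0.85 and 0.98. The bright probe of Clic4, an intracellular chloride channel, differed by 0.64 ± 0.21, whereas the 2 dimmer probes of the gene differed by -0.28 and -0.15.

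Genes near background made up the rest of those 15. Ap3m1, a subunit of a vesicle adaptor complex, measured 7.06, 7.07 and 6.90 in Ts65Dn, against 6.09, 6.55 and 6.003 in Ts1Cje. Impa1, which frees inositol from its phosphate, differed by 1.17 ± 0.29, Kcnk3, a potassium channel, by 1.03 ± 0.31, and Gabarapl2, an autophagy protein, by 0.80 ± 0.25. Below background on every Ts1Cje array were Gpr176, an orphan receptor (at least 1.48-fold higher in Ts65Dn, means 7.12 and 6.08), Crygc, a lens crystallin (at least 1.87-fold, means 7.46 and 6.42), Nav3, a microtubule-associated protein (at least 1.28-fold, means 6.92 and 6.23), and Csnk1g1, a casein kinase (at least 1.21-fold, means 6.83 and 6.07). These bounds are on the group means and leave out the spread between arrays. By limma the adjusted p was 0.437, 0.818, 0.862 and 0.689 in that order.

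Of the 15 genes named for lower values in Ts65Dn, several had bright signals. Rfc2, a subunit of the clamp loader of DNA replication, measured 12.23, 11.83 and 12.13 in Ts65Dn, against 12.92, 12.59 and 12.66 in Ts1Cje. Its difference was -0.66 ± 0.18, and -0.56 without the array labelled Ts1Cje replicate 1 (limma, adjusted p = 0.689 with all arrays). Ciapin1, needed for assembly of cytosolic iron-sulphur proteins, measured 13.58, 13.33 and 13.76 in Ts65Dn, against 14.29, 14.02 and 14.23 in Ts1Cje. These groups were apart, and Ciapin1 differed by -0.62 ± 0.18 while Exoc3, a subunit of the exocyst, differed by -0.43 ± 0.12. The coiled-coil gene Ccdc73 differed by -0.91 ± 0.22, and Inca1, an inhibitor of cyclin-dependent kinase activity, by -0.52 ± 0.17. With that array left out these differences were -0.57 for Ciapin1, -0.36 for Exoc3, -0.75 for Ccdc73 and -0.37 for Inca1.

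In all 15, chosen for their small p, every Ts65Dn array lay below every Ts1Cje array. Il18, a cytokine, measured 7.77, 7.17 and 7.38 in Ts65Dn, against 8.29, 7.82 and 8.47 in Ts1Cje, a difference of -0.75 ± 0.21 (limma, adjusted p = 0.689), or -0.70 (-0.701 before rounding) without the array labelled Ts1Cje replicate 1. The cadherin-family receptors Celsr3 and Celsr2 differed by -0.56 ± 0.16 and -0.84 ± 0.26. Cd274, the ligand of the receptor PD-1, differed by -0.49 ± 0.15, Slc38a9, an amino acid sensor of the lysosome, by -0.45 ± 0.15, and Tm7sf2, a sterol reductase, by -0.43 ± 0.14. Pik3r4, a regulatory subunit of the class III phosphoinositide 3-kinase, differed by -0.92 ± 0.31, and Atn1, a transcriptional corepressor, by -0.67 ± 0.23. H2-Q6, a class I histocompatibility gene with near-identical neighbours, differed by -0.94 ± 0.22. Dgkh, a diacylglycerol kinase, was below background on the Ts65Dn arrays and at least 1.18-fold higher in Ts1Cje (means 5.85 in Ts65Dn and 6.80 in Ts1Cje).

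The labelled tissue was checked by marker genes. All 5 tested spermatogonial markers and all 4 tested meiotic prophase markers were detected on all 6 arrays, as were 6 of the 7 tested pachytene to diplotene markers and 5 of the 11 round spermatid markers. The 6 tested Sertoli cell markers were also detected on every array, with a mean log2 intensity of 12.66 in Ts65Dn and 12.35 in Ts1Cje, so RNA of somatic cells was present beside that of germ cells. Of 16 listed Leydig cell markers, 9 were named on the array and tested, and 6 of these were detected on all 6 arrays.

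Germ cell markers varied widely among the Ts1Cje arrays. The spermatogonial and meiotic prophase lists had median differences of 0.01 and 0.00 (0.003 before rounding), with 3 of 5 and 2 of 4 genes higher in Ts65Dn. The spermatogonial median without the array labelled Ts1Cje replicate 1 was -0.34, with 0 of 5 genes higher. In 3 of the 5 all Ts65Dn arrays then lay below both remaining Ts1Cje arrays, against 457 of all 5174 named genes. With all arrays this held for 0 of the 5. The meiotic prophase median without that array was -0.05. For the 7 pachytene to diplotene genes the median difference was -0.21, or -0.15 without that array, and the deviation from the WT mean was -0.70, -0.78 and -0.30 on the Ts65Dn arrays, against 0.73, -1.41 and 0.01 on the Ts1Cje arrays. The Ts1Cje arrays thus lay on both sides of all Ts65Dn arrays, with replicate 1 the highest and replicate 2 the lowest. Of the 7 genes, 5 had replicate 1 the highest and replicate 2 the lowest of the Ts1Cje arrays, and 2 had replicate 2 the highest. Zpbp, an acrosomal protein, was of the first kind, with 10.30, 9.76 and 10.42 in Ts65Dn, against 11.85, 9.52 and 11.10 in Ts1Cje. Ccnb1, the cyclin of entry into division, was of the other kind, with 11, 10.53 and 10.41 in Ts65Dn, against 10.87, 10.997 and 10.72 in Ts1Cje, and so was the mitotic kinase Plk1, named after its values were seen. The 11 round spermatid genes had a median of -0.25, or 0.15 without the array labelled Ts1Cje replicate 1. Of the 11, 3 had a higher mean in Ts65Dn with all arrays and 7 without that array. At an unadjusted p under 0.05, 0 of them was higher or lower. Catsper2, a sperm calcium channel subunit, measured 11.13, 10.91 and 11.29 in Ts65Dn, against 12.69, 10.45 and 12.27 in Ts1Cje. Its difference of -0.69 ± 0.48 was -0.25 without replicate 1.

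Leydig cell genes had higher values in Ts65Dn. All 9 of them had a higher mean in Ts65Dn, with and without the array labelled Ts1Cje replicate 1, and the median difference was 0.58, or 0.37 without it. Of the 9, 2 were higher at an unadjusted p under 0.05 with all arrays and 0 without it, against 2.69% and 1.01% of all named genes. The deviation from the WT mean was 0.30, 1.00 and 1.30 on the Ts65Dn arrays, against -0.34, 0.59 and 0.65 on the Ts1Cje arrays. The groups overlapped, since Ts65Dn replicate 1 lay below Ts1Cje replicates 2 and 3. Lhcgr, the luteinising hormone receptor, measured 6.22, 7.57 and 7.39 in Ts65Dn, where 2 arrays were above background, against 5.49, 6.43 and 6.47 in Ts1Cje, where none was. Lhcgr was at least 1.41-fold higher in Ts65Dn (means 7.06 and 6.13). Star, which brings cholesterol into mitochondria, measured 8.26, 8.96 and 8.17 in Ts65Dn, against 7.87, 8.01 and 8.06 in Ts1Cje. Its groups did not overlap and differed by 0.48 ± 0.22 (limma, adjusted p = 0.958), or 0.43 without replicate 1. Scarb1, a receptor for high-density lipoprotein, differed by 0.58 ± 0.30, or 0.37 without it. At 19-20 dpp the median of the Leydig list was -0.41.

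Sertoli cell genes had a median difference of 0.44, which was 0.11 without the array labelled Ts1Cje replicate 1. Of the 6 tested, 4 had a higher and 2 a lower mean in Ts65Dn, and the lowest difference was -0.19. With or without that array, 0 of the 6 was higher or lower at an unadjusted p under 0.05. Wt1, a transcription factor of Sertoli cells, measured 13.78, 13.92 and 13.79 in Ts65Dn, against 12.64, 13.68 and 13.23 in Ts1Cje. The transcription factor Gata4 differed by 0.59 ± 0.37 and Dhh, a signal to Leydig cells, by 0.53 ± 0.40, and these differences were 0.27 and 0.16 without that array. The part of Sertoli or Leydig cell RNA in the values of the trisomic genes was not tested. Endothelial genes had a median of 0.17, peritubular genes of -0.07, macrophage genes of -0.19 and red cell genes of -0.65. With the array labelled Ts1Cje replicate 1 left out these medians were 0.24, 0.15, -0.07 and -0.43, and with or without it none of these 17 genes was higher or lower at an unadjusted p under 0.05.

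**Figure D5:**
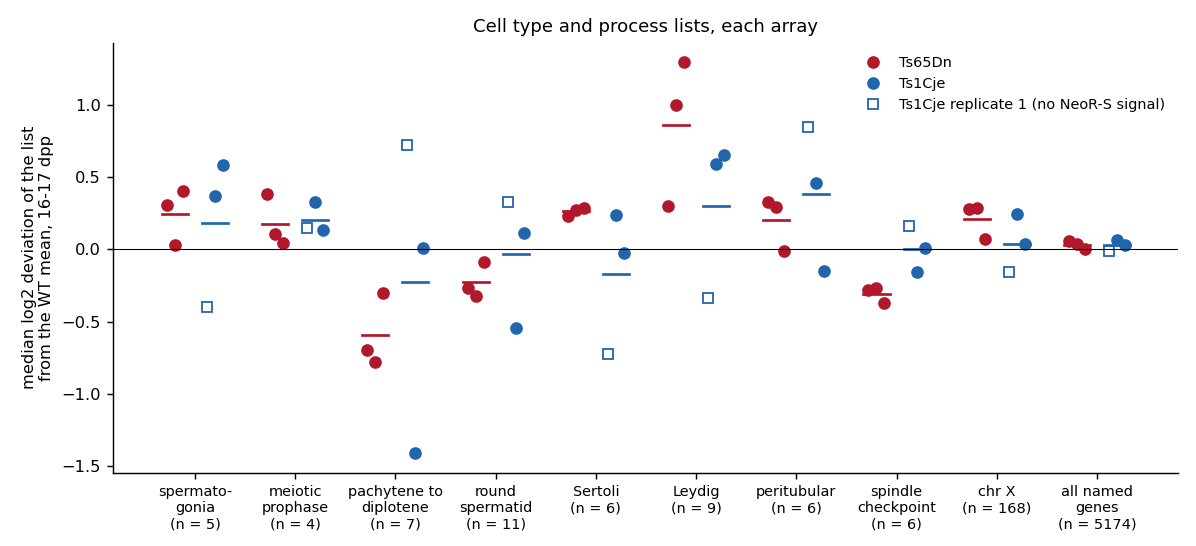
Median deviation from the WT mean, in log2 units (vertical axis), of marker and process lists (horizontal axis) on each 16-17 dpp array, with a line at the mean of 3 arrays and an open square for Ts1Cje replicate 1. The pachytene to diplotene list reads -0.70, -0.78 and -0.30 on the Ts65Dn arrays and 0.73, -1.41 and 0.01 on the Ts1Cje arrays, whereas all named genes lie near 0.

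Genes of the spindle checkpoint and chromosome segregation tended to lower values in Ts65Dn. Of 6 tested, 1 had a higher mean and 2 were lower at an unadjusted p under 0.05, against 1.95% of all named genes. The median difference was -0.31. It was -0.21 without the array labelled Ts1Cje replicate 1, with 0 lower at an unadjusted p under 0.05. Their deviation from the WT mean was -0.28, -0.27 and -0.37 on the Ts65Dn arrays, against 0.16, -0.16 and 0.01 on the Ts1Cje arrays. Cdc20, the activator of the anaphase-promoting complex, measured 13.32, 12.85 and 12.96 in Ts65Dn, against 13.94, 13.30 and 13.58 in Ts1Cje. The highest Ts65Dn array lay just above the lowest Ts1Cje array, and Cdc20 differed by -0.56 ± 0.19 (limma, adjusted p = 0.891), or -0.39 without replicate 1. The 2 other probes of Cdc20 differed by -0.45 ± 0.24 and -0.31 ± 0.2, or -0.17 and -0.07 without replicate 1. Birc5 and Cdca8, which belong with Aurora B to the chromosomal passenger complex, differed by -0.39 ± 0.17 and -0.32 ± 0.22, or -0.29 and -0.07 without it.

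Antioxidant genes were of interest because the models differ in Sod1. Of 7 tested, 2 were higher and 1 lower at an unadjusted p under 0.05, against 2.69% and 1.95% of all named genes. The median was 0.13. Without the array labelled Ts1Cje replicate 1, 1 was higher and 0 lower, and the median was -0.06. The higher ones were Prdx2, described above, and Prdx6, another peroxiredoxin, at 0.56 ± 0.23, which was 0.22 without that array. Gclm, a subunit of the enzyme that begins glutathione synthesis, measured 12.001, 11.75 and 12.07 in Ts65Dn, against 12.33, 12.23 and 12.39 in Ts1Cje, a difference of -0.37 ± 0.17, or -0.36 without that array. Chromosome X genes had a median of 0.16, with 118 of 168 means higher in Ts65Dn, against 48.9% of all named genes. Without replicate 1 the median was 0.06, with 103 of 168 means higher, against 48.1% of all named genes. The median of the 12 steroid and cholesterol synthesis genes was 0.07, that of 5 interferon response genes -0.06, and that of 9 endoplasmic reticulum and torsin genes 0.12. Large housekeeping lists lay close to 0, at -0.03 for 71 ribosomal protein genes and -0.02 for 40 oxidative phosphorylation genes.

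The comparison of the models was also tested for a change with age, using the same contrast at 19-20 dpp. In the limma interaction 0 of 21327 probes (0%) passed the adjusted threshold, with a smallest adjusted p of 0.0522 and 3915 probes at an unadjusted p under 0.05. Without the array labelled Ts1Cje replicate 1 it was again 0, with 3724 probes at an unadjusted p under 0.05, while other fits called up to 2724 probes. The chromosome 16 genes in 3 copies in Ts65Dn alone had a median difference of 0.60 at 16-17 dpp and 1.11 at 19-20 dpp, and the chromosome 17 genes had 0.55 and 0.33. App differed by 0.88 ± 0.25 at 16-17 dpp and 1.26 ± 0.25 at 19-20 dpp, and Ezr by 1.06 ± 0.22 and 0.77 ± 0.22. Neither interaction passed (limma, adjusted p = 0.599 for App and 0.651 for Ezr), and both genes were called at 19-20 dpp (adjusted p = 0.013 and 0.0404).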

How the data were processed

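Per the file headers, the deposited files give the average signal intensity of each probe on each array and a detection p-value set against that array's negative control probes. BeadStudio wrote them, per the submitters' processing notes, and no source used here gives its version. Judged by its values, the series table the authors deposited has log2 intensities after quantile normalisation, and it served as an alternative only.

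Background was corrected by limma's nec (normexp, offset 16), followed by quantile normalisation of the log2 values. Testing was limited to probes detected (p under 0.05) on 3 or more of the 18 arrays, 21327 of 46657, and 385 control probes were left out. One limma model with 6 group terms was fitted to 18 arrays. It held no replicate term, because the replicate numbers were not taken to pair the arrays, though a pairing was not excluded. The Benjamini-Hochberg adjustment ran over all tested probes. The number of arrays limits the precision. A lower bound of a fold sets the mean of all arrays of the brighter group against the mean of the dim group. Each dim array counts at its own value or at its lowest signal detected above background, whichever is higher. The bound leaves out the spread between arrays.

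Zero-padded gene numbers in the probe targets and RIKEN clone names were matched to a RefSeq gene table (GRCm38.p6, used for names and gene order). Of 11857 padded numbers 9796 matched (82.6%), and other probes stayed unnamed. This named 10791 probes for 8692 genes, and 5174 genes were tested, each by its brightest tested probe. On chromosomes 12, 16 and 17, 12 genes listed ahead of the sequenced start were left out of the position lists.

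Named genes are all genes in unequal copies with a tested probe, the 3 genes of a list with the smallest unadjusted p, and the 15 others of each direction with the smallest unadjusted p. Members, lists and rules were chosen with earlier results of these data known. Software was R 4.3.3, limma 3.58.1, python 3.11.15, numpy 2.4.6, pandas 2.3.3 and matplotlib 3.10.9. Alternatives covered background correction, scaling, probe filters, arrays in the fit, array weights, blocks and leaving out each array.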

Additional observations from a re-analysis of the deposited data

Results flagged for a closer look

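In 3 of the 69 named genes for which a difference was followed, all 3 from the 15 chosen for lower values at 16-17 dpp, every Ts65Dn array lay below every Ts1Cje array at 16-17 dpp and every Ts65Dn array lay above every Ts1Cje array at 19-20 dpp. Over all 5174 named genes tested, 72 (1.39%) had this pattern, which is 27.9% of the 258 that lay below at 16-17 dpp. The opposite pattern was seen in 21 (0.406%), or 5.77% of the 364 that lay above at 16-17 dpp. Cd274 measured 9.53, 9.67 and 9.46 in Ts65Dn, against 10.22, 9.98 and 9.92 in Ts1Cje, at 16-17 dpp, and 9.79, 10.19 and 9.84 in Ts65Dn, against 9.35, 9.77 and 9.58 in Ts1Cje, at 19-20 dpp. Its difference was -0.49 (-0.485 before rounding) at the earlier age and 0.38 at the later one, and the interaction had an adjusted p of 0.104. Inca1 measured 11.09, 11.23 and 10.91 in Ts65Dn, against 11.89, 11.35 and 11.55 in Ts1Cje, at 16-17 dpp, and 11.43, 11.53 and 11.14 in Ts65Dn, against 10.89, 10.89 and 10.81 in Ts1Cje, at 19-20 dpp. Its differences were -0.52 and 0.51, with an interaction adjusted p of 0.0989. Slc38a9 measured 8.59, 8.69 and 8.78 in Ts65Dn, against 9.14, 8.86 and 9.42 in Ts1Cje, at 16-17 dpp, and 9.15, 9.04 and 9.15 in Ts65Dn, against 8.80, 8.88 and 8.94 in Ts1Cje, at 19-20 dpp. It differed by -0.45 at 16-17 dpp and 0.24 at 19-20 dpp, with an interaction adjusted p of 0.138. No interaction passed the adjusted threshold in limma, and the unadjusted p-values were 0.00108, 0.000534 and 0.00527. The part of the main axis of variation among the arrays in this pattern was not tested.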

How the results depend on the processing

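The count of probes called between Ts65Dn and Ts1Cje at 16-17 dpp, 0 with 1083 at an unadjusted p under 0.05, was 1 with median scaling, 1 in a fit of the 9 arrays of this age, 6 in a fit of the 6 arrays, and 122 (85 higher and 37 lower) with array weights. The weights were 1.63, 1.92 and 1.06 for the Ts65Dn arrays and 0.44, 0.37 and 2.43 for the Ts1Cje arrays. Array weights without the array labelled Ts1Cje replicate 1, chosen after seeing the data, called 0, as did a fit of the other 5 arrays. Leaving out each array in turn gave 0 to 1, with 1 without Ts65Dn replicate 3 and 1 without Ts1Cje replicate 3. The cause was not tested.

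The age interaction, 0 in the main model, called 5 probes without background correction, 4 with an offset of 50, 5 with the deposited series table, 7 without the detection filter, 3 with probes detected on every array, 2724 with array weights, 389 with array weights on 17 arrays, and 0 to 1 with each 16-17 dpp array left out. Same-numbered arrays of the models deviated together at r = -0.161, 0.355 and 0.344, and not every array correlated best with its own number. Ts65Dn replicate 1 correlated best with Ts1Cje replicate 2 (0.278), and Ts65Dn replicate 3 with Ts1Cje replicate 1 (0.388). Ts65Dn replicate 2 with Ts1Cje replicate 3 gave -0.168, and Ts65Dn replicate 3 with Ts1Cje replicate 2 gave -0.558. The numbers were not taken to pair the arrays, though a pairing was not excluded. With the replicate number as a block, 0 probes were called at 16-17 dpp (smallest adjusted p = 0.0806, 2043 at an unadjusted p under 0.05) and 1098 for the interaction (697 higher and 401 lower). A block on the runs of 6 array numbers, added after seeing the data, called 0 for both.

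Median scaling moved the median of all named genes to 0.12, and with it the chromosome 17 genes in 3 copies in Ts65Dn alone to 0.684, Sod1 to 0.426, and the 2-copy genes of chromosomes 16 and 17 to 0.09 and 0.076. The chromosome 17 3-copy median was 0.456 without background correction and with the deposited series table, 0.443 with array weights, and 0.431 to 0.638 with each array left out. The 2-copy medians were 0.01 on chromosome 16 with array weights, -0.056 to 0.005 there with each array left out, and -0.076 on chromosome 17 with probes detected on every array. Averaging both Sod1 probes gave 0.109.

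Of 69 named genes, 5 changed sign under some alternative and 17 passed under some. With array weights Adamts1 was 0.446, Ldhal6b -0.571, Tagap1 -0.013 and Tcp10a -0.205, and Adamts1 was 0.048 with array weights on 17 arrays. With each array left out, Adamts1 ranged over -0.751 to 0.015, Ldhal6b over -1.214 to 1.351, Tmem181a over -0.043 to 0.248, Tagap1 over -0.254 to 0.257 and Tcp10a over -1.135 to 2.012. Zbtb40 passed with median scaling (adjusted p = 0.0394), Prdx2 in the fit of 6 arrays (0.00394), and both with array weights, as did Ezr (0.00369), App (0.0395), Bach1 (0.0369), Rps6ka2 (0.0399) and Jam2 (0.0495). The neomycin probe was lower in Ts65Dn under every alternative run. Signal over background limits the dim probes, which have only lower bounds where 1 group was not detected.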
